A study of Mus musculus with 7 samples.

Results

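Solute carriers, the genes named Slc with a family number, a letter and a member number, were followed through whole mouse embryos that carried, had lost 1 copy of, or lacked both copies of Adnp. A gene was taken where a probe set of the array was annotated to that symbol alone and its signal averaged at least 35 over the arrays, and the brightest probe set stood for the gene. This gave 147 genes of 42 families, out of 254 solute carrier genes of 48 families on the array, and these 147 are among 8075 genes of any kind that met the same minimum. The signal level therefore chose the genes, and their levels below are descriptions. The genotype was not used in the choice, but 8 of the 147 reached the minimum through the knockout arrays.

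Solute carriers are membrane proteins that move sugars, amino acids, lactate, metals, nucleotides and ions across the plasma membrane or across the membranes of organelles, either down a gradient or coupled to another solute. In an early embryo they bring in glucose and amino acids and carry out lactate, and in the absorptive epithelia around the embryo they pass nutrients and metals on to it. The heavy chain Slc3a2, for example, takes light chains such as Slc7a5 to the cell surface, and the iron exporter Slc40a1 is the route by which iron leaves a cell.

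The arrays were 7 Affymetrix Murine Genome 430A arrays of RNA from C57BL/6 embryos of embryonic day 9, each array holding a pool of 2 littermates of one genotype and labelled as of mixed sex. The whole body was used after the yolk sac and amnion had been taken off. The wild type (Adnp +/+) had 2 arrays, the heterozygotes (Adnp +/-) 3 and the knockouts (Adnp -/-) 2, with 14 embryos in all. The parents were Adnp heterozygotes, yolk sac DNA was tested by PCR for Adnp and for a neomycin resistance gene, and no other allele or treatment is labelled. The labels do not tell how litters were divided among the pools, so the p-values measure the spread between these pools. Signals were read as brightness on a linear scale. Array medians ran from 55.5 to 57.4, and the median signal of the 147 carriers ran from 83.2 to 95.4 per array. The array's probe set for Adnp is annotated to Dpm1 as well, so the targeted gene could not be used to check the labels.

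The mean signals that chose the carriers ran from 35.8 to 3340, with a median of 92.0 and an upper quartile of 170 (n = 7 arrays). Brightness differs between probes of equal target, so these values place a probe set within the array and do not rank the genes by amount. The brightest probe sets, with means over 1000, were 6 in number and 81 lay under 100. Just inside the minimum were Slc15a2, a peptide carrier, at 36.2 and Slc22a12, a urate carrier, at 35.8. Just outside it were the bicarbonate carrier Slc4a8 at 34.6 and the amino acid carrier Slc7a10 at 34.6. Of the 147 genes, 130 averaged at least 35 in each genotype. Mitochondrial carriers of family Slc25 were the largest class, with 30 genes, followed by carriers of metal ions with 24, amino acids with 16 and nucleotide sugars with 16. Replicates lay close together for most: the median log2 range within a genotype was 0.21 between the wild-type arrays, 0.34 over the heterozygous arrays and 0.17 between the knockout arrays.

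Against the wild type, 8 carriers were higher and 1 was lower in the knockout at an adjusted p under 0.05 in limma, with Benjamini-Hochberg adjustment over all genes tested. The 8 that rose were the glucose carriers Slc2a1 and Slc2a3, the lactate carrier Slc16a1, the amino acid carriers Slc3a2 and Slc7a9, the zinc carrier Slc39a4, the iron exporter Slc40a1 and the mitochondrial carrier Slc25a30. The 1 that fell was the mitochondrial carrier Slc25a14. The 8 are 5.44% of the carriers, beside 2.03% of all 8075 genes that were higher, and the 1 is 0.68%, beside 1.37% of all genes that were lower. At an unadjusted p under 0.05, 22 carriers (15%) stood beside 19.1% of all genes. Most differences were small: the median log2 difference was 0.04 over the 147, with quartiles of -0.16 and 0.24, and -0.01 over all genes. The median standard error of a carrier's difference was 0.21, from 0.09 for Slc25a3 to 0.96 for Slc2a2. Without the 8 carriers that reached the minimum through the knockout arrays, 6 were higher (4.32%) and 1 was lower (0.719%) of 139, beside 1.81% and 1.4% of all genes left by the same exclusion, which was chosen after seeing the data.

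Against the heterozygote, again 8 carriers were higher and 1 was lower in the knockout, and this comparison shares its knockout arrays with the one above. Slc2a1, Slc2a3, Slc16a1, Slc7a9, Slc39a4 and Slc40a1 passed here as well, joined by the glucose carrier Slc2a2 and the zinc and manganese carrier Slc39a8, and the 1 that fell was Slc35a4. These shares, 5.44% and 0.68%, stood beside 3.22% and 2.72% of all genes. Slc2a2, Slc7a9 and Slc39a4 reached the minimum through the knockout arrays, and with such genes left out 5 carriers were higher (3.6%) and 1 was lower (0.719%) of 139, beside 2.91% and 2.77% of all genes. Unadjusted p-values under 0.05 were found for 25 carriers (17%), beside 22.8% of all genes. The calls in both comparisons rested on both knockout arrays: without knockout replicate 1, 2 carriers passed against the wild type and 1 against the heterozygote, and without knockout replicate 2, 0 and 1 passed. Without wild type replicate 2, 2 passed against the wild type. Calls over all genes fell in the same fits, from 275 against the wild type to 78, 37 and 53, in that order, and from 480 against the heterozygote to 79 and 68 without the knockout arrays.

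Between the heterozygote and the wild type 0 carriers passed in limma, as did 0% of all genes in either direction. Unadjusted, 5 carriers (3.4%) had a p under 0.05, beside 3.54% of all genes. They were Slc25a3, which brings phosphate into mitochondria (log2 difference -0.25, heterozygous minus wild type), the glutamine carrier Slc38a1 (-0.50), the iron importer Slc11a2 (0.33), Slc25a14 (-0.59) and the neutral amino acid carrier Slc1a5 (1.19), each with an adjusted p of 0.999. The median log2 difference over the carriers was -0.01, beside 0.01 over all genes.

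**Figure D1:**
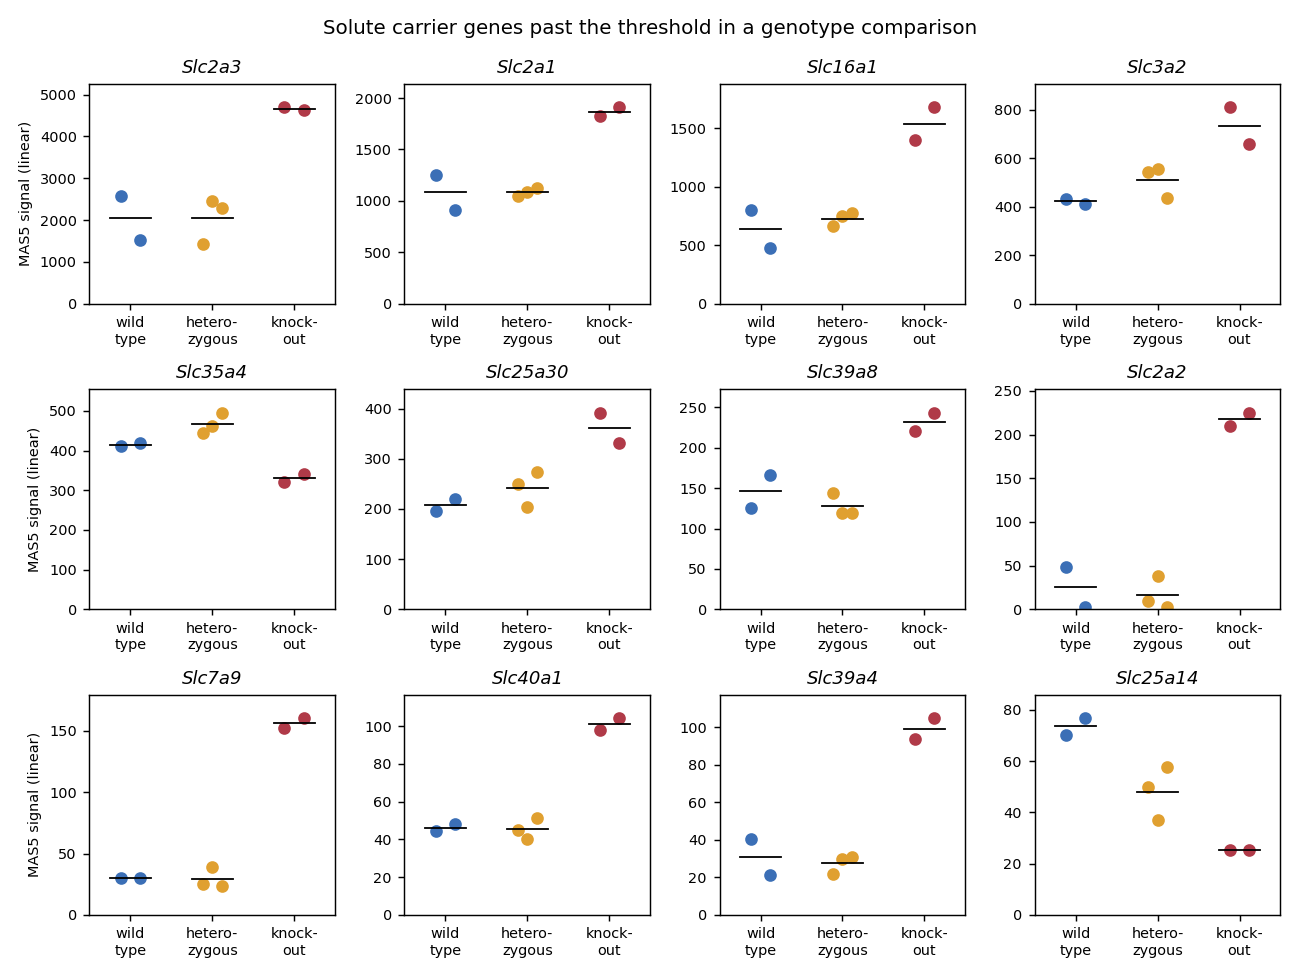
MAS5 signal (linear axis from 0, 1 point per array of 2 pooled embryos) of the 12 solute carriers past an adjusted p of 0.05 in limma in a genotype comparison; the black lines are group means of 2 wild-type, 3 heterozygous and 2 knockout arrays. In 10 panels both knockout points lie above the other 5, and in the panels of Slc35a4 and Slc25a14 both lie below them.

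Of the carriers of sugars and of solutes coupled to sodium, 10 were measured; 2 were higher against the wild type, 3 against the heterozygote and 0 were lower. Slc2a3, the high-affinity glucose carrier also known as GLUT3, gave signals of 2586 and 1535 in the wild type, 1424, 2463 and 2293 in the heterozygotes, and 4700 and 4631 in the knockouts. Both knockout arrays lay far above the other 5, whose genotypes overlapped. The means were 2060 ± 743 (SD, n = 2), 2060 ± 558 (SD, n = 3) and 4665 ± 49.1 (SD, n = 2). Its log2 difference was 1.23 (SE 0.27, 95% interval 0.63 to 1.82) against the wild type, with an adjusted p of 0.0375 in limma, and 1.22 (SE 0.24) against the heterozygote, with an adjusted p of 0.0202. The 4 probe sets of Slc2a3 gave 1.23 to 1.79 against the wild type. Against the wild type its adjusted p was 0.270 without wild type replicate 2, where the log2 difference was 0.85, 0.0628 without heterozygous replicate 3, 0.187 without knockout replicate 1 and 0.188 without knockout replicate 2. Against the heterozygote it was 0.139 and 0.140 without those knockout arrays.

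Slc2a1, or GLUT1, the basal glucose carrier of most embryonic cells, gave 1249 and 916 in the wild type, 1045, 1088 and 1124 in the heterozygotes, and 1824 and 1911 in the knockouts. The knockout arrays again stood above all others, and the heterozygotes lay between the wild-type arrays. Slc2a1 differed by a log2 value of 0.80 (SE 0.14, interval 0.50 to 1.11) against the wild type, with an adjusted p of 0.0142 in limma, and 0.78 (SE 0.13) against the heterozygote, with an adjusted p of 0.00772. Its 3 probe sets agreed within 0.80 to 0.94. The call against the wild type was lost without wild type replicate 2 (adjusted p = 0.106), knockout replicate 1 (0.0920) or knockout replicate 2 (0.128), and with the probe set of highest median signal (0.0760). That against the heterozygote was lost without knockout replicate 1 (0.0659) or 2 (0.0943).

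Slc2a2, or GLUT2, the low-affinity glucose carrier of liver, intestine and other absorptive epithelia, was dim outside the knockout. Its signals were 48.3 and 2.6 in the wild type, 9.6, 38.1 and 2.5 in the heterozygotes, and 210 and 225 in the knockouts. Every knockout value exceeded every other by a wide margin, while the 5 others spread from near the floor of the array to just under the array median. Its log2 difference was 3.60 (SE 0.96, interval 1.47 to 5.73) against the wild type, which did not pass (limma adjusted p = 0.0726), and 3.86 (SE 0.87) against the heterozygote, which did (0.0331). The latter was lost without heterozygous replicate 1 (0.0647), heterozygous replicate 3 (0.0872), knockout replicate 1 (0.177) or knockout replicate 2 (0.192). Slc2a2 is among the 8 genes that reached the minimum through the knockout arrays. Of the other Slc2 genes, the insulin-responsive Slc2a4 had -0.32, Slc2a8 -0.32 and the fructose carrier Slc2a5 0.02 against the wild type, none of which passed.

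The 250 bases before the annotated start of Slc2a1 and Slc2a2 are shown because both genes are of one family and both were higher in the knockout against the heterozygote. They are from RefSeq on GRCm38.p6, written 5′ to 3′ on the gene's strand, and capitals mark matches, on either strand, to ACGTG, the core of hypoxia response elements, to TGCACNC or TGCGCNC, the core of metal response elements, and to CAAAGTCCA or CAAAGTTCA, a site of HNF4 factors.
Slc2a1, chr4:119108495-119108744, plus strand: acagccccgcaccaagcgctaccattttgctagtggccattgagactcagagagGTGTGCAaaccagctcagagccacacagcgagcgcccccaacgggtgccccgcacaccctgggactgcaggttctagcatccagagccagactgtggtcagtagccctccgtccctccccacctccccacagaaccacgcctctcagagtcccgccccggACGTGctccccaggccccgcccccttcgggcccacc
Slc2a2, chr3:28697653-28697902, plus strand: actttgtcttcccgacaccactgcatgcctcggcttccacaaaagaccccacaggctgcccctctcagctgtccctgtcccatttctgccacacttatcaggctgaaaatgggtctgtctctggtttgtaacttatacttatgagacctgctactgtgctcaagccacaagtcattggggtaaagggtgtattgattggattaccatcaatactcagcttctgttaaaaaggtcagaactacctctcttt
The Slc2a1 window held ACGTG 36 bases before the start and a match to the metal response core 196 bases before it. The Slc2a2 window held no match to any of the 3. Of all 32851 promoter windows of this length, 16.6% held ACGTG, 21.4% a metal response core and 0.715% an HNF4 site. Of 163 windows of the 112 carriers with an entry, 23.3%, 30.1% and 0.613% did. A match is a run of letters and was not tested as a binding site.

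Slc16a1, or MCT1, which carries lactate and pyruvate with a proton, was the sole carrier to pass of the 3 measured in its class. It gave 799.5 and 479 in the wild type, 660.4, 746 and 779 in the heterozygotes, and 1399 and 1679 in the knockouts. Its knockout values were again the 2 highest, and the heterozygotes lay between the wild-type arrays. The fit gave a log2 difference of 1.30 (SE 0.21, interval 0.85 to 1.76) against the wild type, with an adjusted p of 0.00987 in limma, and 1.07 (SE 0.19) against the heterozygote, with an adjusted p of 0.0111. The first was lost without knockout replicate 2 (0.106), and the second without knockout replicate 1 (0.0629) or 2 (0.129). Slc16a3, or MCT4, the lactate carrier of strongly glycolytic cells, gave 629 and 642 in the wild type, 729, 645 and 736 in the heterozygotes and 592 and 651 in the knockouts, a log2 difference of -0.03 with an adjusted p of 0.913. It is named here after its values were seen. Slc16a11 had -0.04.

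The window before Slc16a1 is shown for comparison with that of Slc2a1, since both carriers rose in the same arrays.
Slc16a1, chr3:104638414-104638663, plus strand: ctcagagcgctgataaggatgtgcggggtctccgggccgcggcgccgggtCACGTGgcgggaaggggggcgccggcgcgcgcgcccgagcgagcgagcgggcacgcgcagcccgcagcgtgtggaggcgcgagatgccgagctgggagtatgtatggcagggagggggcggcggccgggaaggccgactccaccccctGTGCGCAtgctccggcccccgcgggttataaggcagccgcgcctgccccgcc
It held the run CACGTG, in which ACGTG is read on both strands, 200 bases before the start, and a metal response core 52 bases before it.

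Among 16 amino acid carriers, 2 were higher in the knockout against the wild type, 1 against the heterozygote and 0 were lower, and the class median was 0.18. Slc7a9, the light chain of the cystine and dibasic amino acid carrier of kidney and gut, gave 29.7 and 29.8 in the wild type, 24.8, 39.0 and 23.1 in the heterozygotes, and 153 and 160.4 in the knockouts. No array outside the knockout came near those 2. In log2 units the difference was 2.26 (SE 0.27, interval 1.65 to 2.86) against the wild type, with an adjusted p of 0.00274 in limma, and 2.32 (SE 0.25) against the heterozygote, with an adjusted p of 0.00106. The call against the heterozygote stayed whichever array was left out, and that against the wild type was lost without knockout replicate 2 (0.0512). Slc7a9 reached the minimum through the knockout arrays. Slc3a1, the heavy chain that Slc7a9 pairs with, lay under the minimum, at 26.8 and 1.4 in the wild type, 23.9, 22.6 and 16.6 in the heterozygotes, and 30.2 and 19.2 in the knockouts. Those values overlapped between the genotypes. RefSeq lists 2 overlapping windows for Slc7a9, of which the upstream one is shown because this gene had the lowest adjusted p of the carriers. It held none of the motifs above.
Slc7a9, chr7:35448842-35449091, plus strand: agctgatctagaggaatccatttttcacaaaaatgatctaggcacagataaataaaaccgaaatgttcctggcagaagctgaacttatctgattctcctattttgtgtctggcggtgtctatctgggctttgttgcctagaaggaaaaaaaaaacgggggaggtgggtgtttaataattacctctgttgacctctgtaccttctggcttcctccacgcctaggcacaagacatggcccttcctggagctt

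Slc3a2, the heavy chain of CD98 that is shared by several light chains, gave 432 and 413 in the wild type, 543, 556 and 437 in the heterozygotes, and 810.3 and 657 in the knockouts. The knockout values were the highest, the wild-type values the lowest, and the heterozygotes lay between. Knockout signals differed by a log2 value of 0.78 (SE 0.15, interval 0.45 to 1.11) against the wild type, with an adjusted p of 0.0218 in limma, and 0.52 (SE 0.14) against the heterozygote, with 0.0533. The call was lost without wild type replicate 1 (0.0635), wild type replicate 2 (0.168), knockout replicate 1 (0.180) or knockout replicate 2 (0.0666). Of its light chains, Slc7a5, the carrier of large neutral amino acids, gave 132 and 157, then 192, 144 and 192, then 222 and 209 over the wild-type, heterozygous and knockout arrays, a log2 difference of 0.57 with an adjusted p of 0.112. Slc7a6 gave 0.24 (0.430) and Slc7a7, which releases dibasic amino acids from epithelia, gave 1.35 (0.0606). Slc7a7 signals were 38.5 and 24.7 in the wild type, 26.8, 52.4 and 40.7 in the heterozygotes and 73.3 and 97.2 in the knockouts, with no overlap between the knockouts and the rest.

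Slc1a5, or ASCT2, a carrier of glutamine and other neutral amino acids, had a different order. It gave 20.2 and 15.9 in the wild type, 47.3, 26.7 and 75.1 in the heterozygotes, and 67.2 and 63.0 in the knockouts. Here the heterozygotes lay above the wild type and 1 of them above both knockouts. The estimated log2 difference was 1.66 (SE 0.40) against the wild type, with an adjusted p of 0.0524 in limma, and 0.47 against the heterozygote, with 0.490. Its relative Slc1a4 gave 65.0 and 61.3, then 76.3, 44.7 and 61.1, then 36.3 and 51.9, a log2 difference of -0.50 with an adjusted p of 0.370. The glutamine carriers of family Slc38 did not pass: 6 had a median of -0.09, from -0.36 to 0.23. The brightest of them, Slc38a2, gave 696 and 791 in the wild type, 842, 666 and 753 in the heterozygotes and 622 and 533 in the knockouts, a difference of -0.36 with an adjusted p of 0.192.

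Metal ion carriers numbered 24, of which 2 were higher against the wild type, 3 against the heterozygote and 0 were lower, with a class median of 0.09. Slc39a4, or ZIP4, which takes up zinc at the surface of gut and visceral endoderm, gave 40.5 and 21.4 in the wild type, 21.8, 29.9 and 30.9 in the heterozygotes, and 93.4 and 105 in the knockouts. The other 5 arrays all lay under the lower knockout value, and their genotypes overlapped. Slc39a4 differed by a log2 value of 1.62 (SE 0.32, interval 0.91 to 2.33) against the wild type, with an adjusted p of 0.0252 in limma, and 1.73 (SE 0.29) against the heterozygote, with 0.00994. The first was lost without wild type replicate 2 (0.180), knockout replicate 1 (0.136) or knockout replicate 2 (0.188), and the second without knockout replicate 1 (0.0841) or 2 (0.119). Slc39a4 reached the minimum through the knockout arrays.

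Slc39a8, or ZIP8, which takes up zinc, manganese and iron, gave 126 and 167 in the wild type, 145, 119 and 119 in the heterozygotes, and 221 and 243 in the knockouts. Both knockouts lay above the rest. Its log2 difference was 0.67 (SE 0.18) against the wild type, which did not pass (limma adjusted p = 0.0697), and 0.85 (SE 0.16) against the heterozygote, which did (0.0154). That call was lost without heterozygous replicate 3 (0.0530), knockout replicate 1 (0.0905) or knockout replicate 2 (0.145), and with the average of its probe sets (0.157), whose dimmer member gave 0.46. Apart from Slc39a4 and Slc39a8, no gene of family Slc39 passed. Slc39a6, the brightest of the family, gave 423 and 417, then 368, 414 and 435, then 325 and 318, a log2 difference of -0.38 against the wild type with an adjusted p of 0.119.

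Slc40a1, or ferroportin, the iron exporter, gave 44.2 and 48.3 in the wild type, 45.0, 40.3 and 51.2 in the heterozygotes, and 97.8 and 104 in the knockouts. The 5 arrays with an Adnp copy lay close together and the 2 without one stood apart. The fit gave a log2 difference of 1.07 (SE 0.21, interval 0.60 to 1.54) against the wild type, with an adjusted p of 0.0252 in limma, and 1.09 (SE 0.19) against the heterozygote, with 0.0113. Against the wild type it was lost without wild type replicate 1 (0.0853), wild type replicate 2 (0.130), knockout replicate 1 (0.136) or knockout replicate 2 (0.182), and against the heterozygote without knockout replicate 1 (0.0905) or 2 (0.124). With the probe set of highest median signal it was 0.70 (0.165) and 0.66 (0.116). The iron importer Slc11a2, or DMT1, had 0.05 with an adjusted p of 0.898, while its dimmer probe sets gave -0.42 and -0.66. Zinc exporters of family Slc30, which move zinc out of the cytosol, numbered 7 and none passed, with log2 differences from 0.09 to 0.65 and a median of 0.22. The largest was that of Slc30a1, the exporter at the cell surface, with 30.3 and 46.8 in the wild type, 45.7, 29.2 and 41.1 in the heterozygotes and 60.1 and 62.7 in the knockouts (0.65, adjusted p = 0.269).

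**Figure D2:**
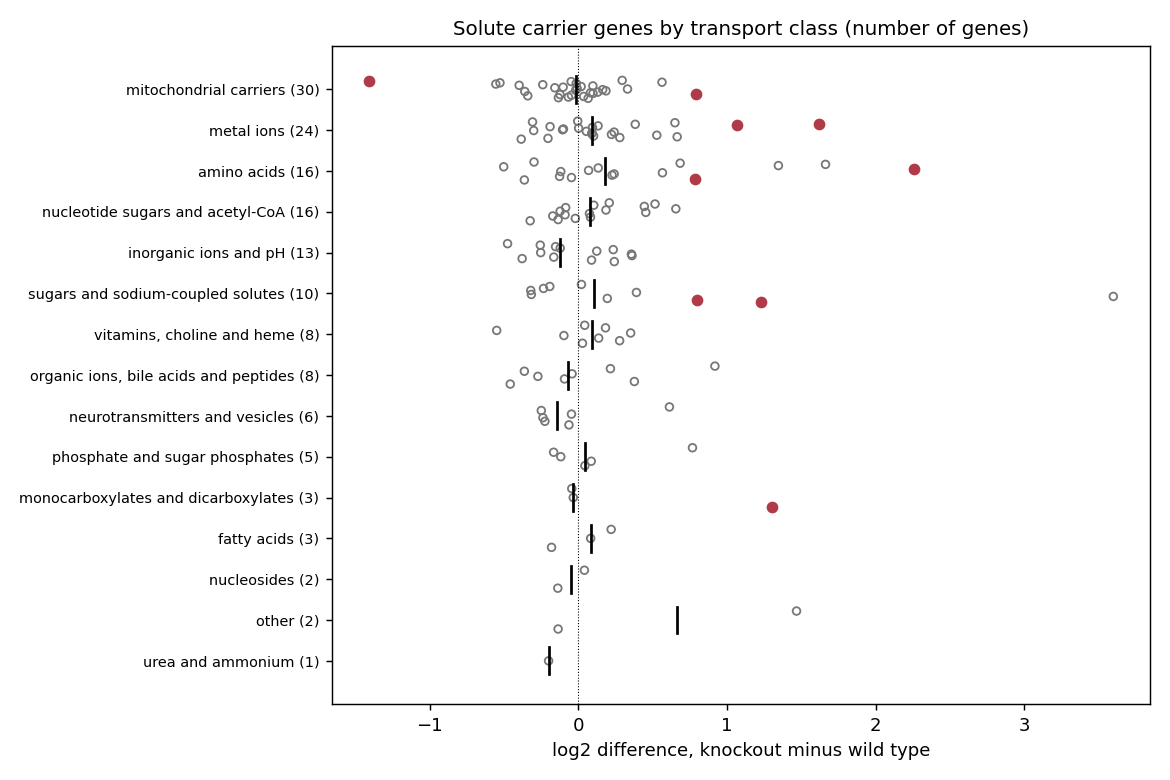
Log2 difference of knockout minus wild type (horizontal axis) for each of the 147 solute carriers, 1 circle per gene, grouped by transport class with the number of genes in brackets; filled circles passed an adjusted p of 0.05 in limma and black bars are class medians. The class medians of the 5 largest classes lie between -0.12 and 0.18 and all of them hold most of their circles within 1 log2 unit of 0.

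The 30 mitochondrial carriers of family Slc25 had a median log2 difference of -0.02 against the wild type, with 1 higher and 1 lower, and 0 passed against the heterozygote. Slc25a30, a carrier related to the uncoupling proteins, gave 196 and 219 in the wild type, 251, 204 and 274 in the heterozygotes, and 392 and 332 in the knockouts. The knockout values were the highest and the other genotypes overlapped. In log2 units the difference was 0.79 (SE 0.16, interval 0.43 to 1.16) against the wild type, with an adjusted p of 0.0295 in limma, and 0.58 (SE 0.15) against the heterozygote, with 0.0517. The call was lost without wild type replicate 1 (0.118), wild type replicate 2 (0.131), knockout replicate 1 (0.213) or knockout replicate 2 (0.114). Its 5 probe sets did not give 1 size: the one nearest in brightness gave 0.29, and the others 0.86, 1.00 and, near the floor of the array, 0.14.

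Slc25a14, another relative of the uncoupling proteins that is known from brain, was the carrier that fell against the wild type. It gave 70.3 and 76.7 in the wild type, 49.8, 37.0 and 57.5 in the heterozygotes, and 25.4 and 25.3 in the knockouts, so that the 3 genotypes did not overlap and the heterozygotes lay in the middle. Knockout signals differed by a log2 value of -1.41 (SE 0.26, interval -1.99 to -0.82) against the wild type, with an adjusted p of 0.0208 in limma. Against the heterozygote it was -0.81 (SE 0.24), with 0.0755. Slc25a14 lies on the X chromosome, and Y-linked signal, given below, was lower in both wild-type pools than in all others. Sex and genotype therefore cannot be told apart in its difference from the wild type. The call was lost without wild type replicate 1 (0.0617), wild type replicate 2 (0.169), knockout replicate 1 (0.108) or knockout replicate 2 (0.122). The bright housekeeping carriers of the family gave values near 0. Slc25a3, the phosphate carrier, had 0.07 (SE 0.09), and the adenine nucleotide carriers Slc25a4 and Slc25a5 had -0.07 (SE 0.10) and -0.13 (SE 0.12). The largest negative values after Slc25a14 belonged to carriers of ATP and magnesium, Slc25a25 with -0.56 (adjusted p = 0.448) and Slc25a24 with -0.53 (0.340).

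Carriers of nucleotide sugars and acetyl-CoA, which feed glycosylation in the Golgi and endoplasmic reticulum, numbered 16; 0 passed against the wild type and 1 was lower against the heterozygote. This was Slc35a4, with 410.5 and 419.9 in the wild type, 445, 461 and 495 in the heterozygotes, and 320.4 and 342 in the knockouts. The knockouts were the lowest and the heterozygotes the highest, with no overlap. The estimated log2 difference was -0.49 (SE 0.10, interval -0.72 to -0.26) against the heterozygote, with an adjusted p of 0.0247 in limma, and -0.32 (SE 0.11) against the wild type, with 0.156. It was lost without heterozygous replicate 3 (0.0692), knockout replicate 1 (0.185) or knockout replicate 2 (0.135), and with the average of its 2 probe sets (-0.33, 0.0923), the dimmer of which gave -0.17.

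In the other classes 0 carriers passed in either comparison with the knockout. The 13 carriers of inorganic ions had a median of -0.12 against the wild type, from -0.48 to 0.36. The chloride cotransporter Slc12a2, the brightest of them, had 0.24 (adjusted p = 0.415), and the bicarbonate exchanger Slc4a3 had -0.48 (0.614), with knockout signals of 16.2 and 52.3 that lay on both sides of the wild-type values of 42.4 and 43.2. The 8 carriers of organic ions, bile acids and peptides had a median of -0.07, with Slc22a17 at -0.46 (0.279). The 8 of vitamins, choline and heme had 0.09, with the choline carrier Slc44a2 at 0.03 (0.962) and the heme carrier Slc48a1 at -0.55 (0.350). The 6 of neurotransmitters and vesicles had -0.14, with the taurine carrier Slc6a6 at -0.06 (0.912), and the 5 of phosphate and sugar phosphates had 0.04, with Slc20a1 at 0.04 (0.908). The lysosomal amino acid carrier Slc66a1, one of 2 genes outside these classes, gave 25.6 and 22.7 in the wild type, 28.3, 25.8 and 5.1 in the heterozygotes and 75.9 and 71.0 in the knockouts. Its knockouts did not overlap with the rest, and its log2 differences of 1.47 (adjusted p = 0.185) and 1.92 (0.0523) did not pass in limma. Slc66a1 reached the minimum through the knockout arrays.

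**Figure D3:**
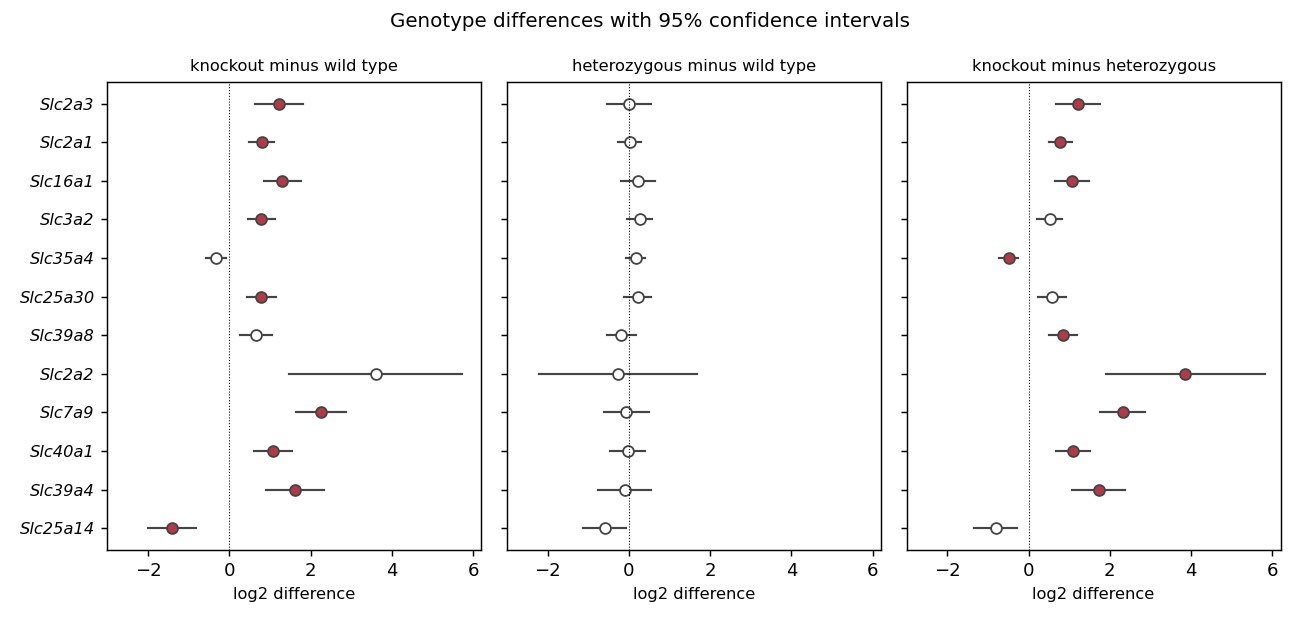
Log2 differences (horizontal axes) of the 12 solute carriers past the threshold, in the 3 genotype comparisons; points are the estimates of the fit, lines their 95% intervals, and filled points passed an adjusted p of 0.05 in limma. In the middle panel, heterozygous minus wild type, all 12 points are open, from -0.59 for Slc25a14 to 0.27 for Slc3a2.

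Counted by arrays alone, both knockout arrays lay above all 5 others for 26 carriers (17.7%), beside 14.4% of all genes, and below them for 11 carriers (7.48%), beside 16.5% of all genes. The first group held 5 of the 16 amino acid carriers, 5 of the 24 metal carriers and 4 of the 10 sugar carriers. Among them were Slc2a2, Slc7a9 and Slc39a4, which, like Slc66a1 in the same group, reached the minimum through the knockout arrays. These shares were not counted again without such genes. The 11 below held 3 mitochondrial carriers and no sugar carrier.

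Of the 107 solute carriers under the minimum, 27 exceeded a signal of 35 on at least 1 array. In a fit of all 12393 genes with no minimum, 0 of the 107 passed against the wild type, beside 1.31% of all genes, and 13 had an unadjusted p under 0.05, beside 15.2%. Against the heterozygote 1 passed, beside 2.49% of all genes, and 13 had an unadjusted p under 0.05, beside 17.9%. The 1 that passed was Slc6a4, the serotonin carrier, at 2.1 and 3.0 in the wild type, 1.6, 2.2 and 1.8 in the heterozygotes, and 16.7 and 9.3 in the knockouts (log2 difference 1.53, limma adjusted p = 0.0402). These signals are dimmer than most of the array, and the size of the difference depends on the 3.8 added before taking logs.

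Proteins that work with these carriers were read from a list of 46 genes, of which 29 met the minimum. The list was chosen with earlier results of these data known. Against the wild type 5 were higher and 0 lower, beside 2.03% and 1.37% of all genes, with a median of 0.26 beside -0.01. Against the heterozygote 7 were higher and 1 lower, beside 3.22% and 2.72% of all genes. Embigin (Emb), a chaperone of the lactate carriers, gave 497.5 and 406 in the wild type, 413, 557 and 565 in the heterozygotes, and 1530 and 1445 in the knockouts, a log2 difference of 1.72 with an adjusted p of 0.000893 in limma. Basigin (Bsg), the other chaperone of Slc16a1, had 0.32 (adjusted p = 0.155). The zinc-binding metallothioneins Mt1 and Mt2 had adjusted p-values of 0.000223 and 0.00246, with a log2 difference of 2.51 for Mt1. Mt1 gave 159 and 165 in the wild type, 135, 179 and 213 in the heterozygotes and 1015 and 872 in the knockouts. Among the scaffolds that hold carriers at the apical membrane, Slc9a3r1 rose by 1.65 (0.00528) and ezrin (Ezr) by 1.01 (0.0481). Of the other scaffolds, Pdzk1 had 2.41 (limma adjusted p = 0.142) and Slc9a3r2 -0.58 (0.146) against the wild type, and did not pass. Pdzk1ip1, a protein that binds Pdzk1, had 0.26 (0.589) and did not pass either. Against the heterozygote the scaffold Pdzk1 had 3.59 (0.0226), the carbonic anhydrase Car4 1.66 (0.0475) and the scaffold Slc9a3r2, the 1 that fell, -0.73 (0.0450). Pdzk1 reached the minimum through the knockout arrays. It gave 47.6 and 11.3 in the wild type, 1.7, 33.8 and 5.2 in the heterozygotes, and 145 and 144 in the knockouts.

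Markers of other tissues also differed on the knockout arrays. Of 20 measured genes of visceral endoderm, the absorptive layer that lines the yolk sac, 12 were higher in the knockout against the wild type and 15 against the heterozygote, with a median log2 difference of 2.73 against the wild type. Their summed signal was 1210 to 3726 in the wild type, 1287 to 2568 in the heterozygotes and 12656 to 14956 in the knockouts. The cubilin receptor gene Cubn, for example, gave 94.9 and 3.8, then 2.2, 63.7 and 23.5, then 835 and 814. Apoa4 and Apob, both counted among the genes measured, reached the minimum through the knockout arrays. Wild type replicate 1 and heterozygous replicate 2 had the highest mean log2 signal of this list outside the knockout (6.98 and 6.55, beside 5.25 to 5.94). These were also the highest 2 arrays outside the knockout for 2 of the 10 carriers that rose in a comparison, Slc2a2 and Slc2a3. They were not for the other 8, at times by little: Slc7a9 gave 29.7 in wild type replicate 1 and 29.8 in wild type replicate 2. The share of all genes with this order was not counted, so the count does not tell which carriers follow the endoderm markers. With the endoderm list mean as a covariate, 0 carriers passed against either genotype, and 4 and 0 of all genes did. Both knockout arrays have the highest values of this covariate, 8.60 and 8.77. In that fit the log2 difference against the wild type went from 1.23 to -0.07 for Slc2a3, from 3.60 to -0.40 for Slc2a2, from 0.80 to 0.33 for Slc2a1, from 1.30 to 0.45 for Slc16a1 and from 1.62 to 0.54 for Slc39a4. It went from 2.26 to 1.84 for Slc7a9, from -1.41 to -1.02 for Slc25a14 and from 0.78 to 0.74 for Slc3a2. It was larger than without the covariate for Slc25a30 (1.17), Slc40a1 (1.27) and Slc39a8 (1.23). The arrays of the other genotypes lay at 5.25 to 6.98, so the covariate alone sets the knockouts apart. The changed differences therefore cannot tell which carriers follow the endoderm markers. Neural markers were lower in 5 of 7 against either genotype, and heart markers in 2 of 8 against the wild type and 3 of 8 against the heterozygote. Of the erythroid (6), trophoblast (4) and decidual (3) markers, 0 passed against the wild type. Cdx2, 1 of the 4 genes of the trophoblast list, was higher against the heterozygote (log2 difference 2.22, limma adjusted p = 0.0473). The other 3 of that list did not pass, and the tissue behind the Cdx2 signal was not tested. Cdx2 reached the minimum through the knockout arrays. It gave 26.6 and 11.1 in the wild type, 4.4 to 24.3 in the heterozygotes, and 69.0 and 98.3 in the knockouts. The decidual marker Prl8a2 gave 829 in heterozygous replicate 1 and 16.2 to 138 on the other arrays. Without that array, 11 carriers passed against the wild type and 9 against the heterozygote. In whole embryos, more cells of a type and more RNA per cell cannot be told apart, and the part of these tissues in the carriers' differences was not tested.

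**Figure D4:**
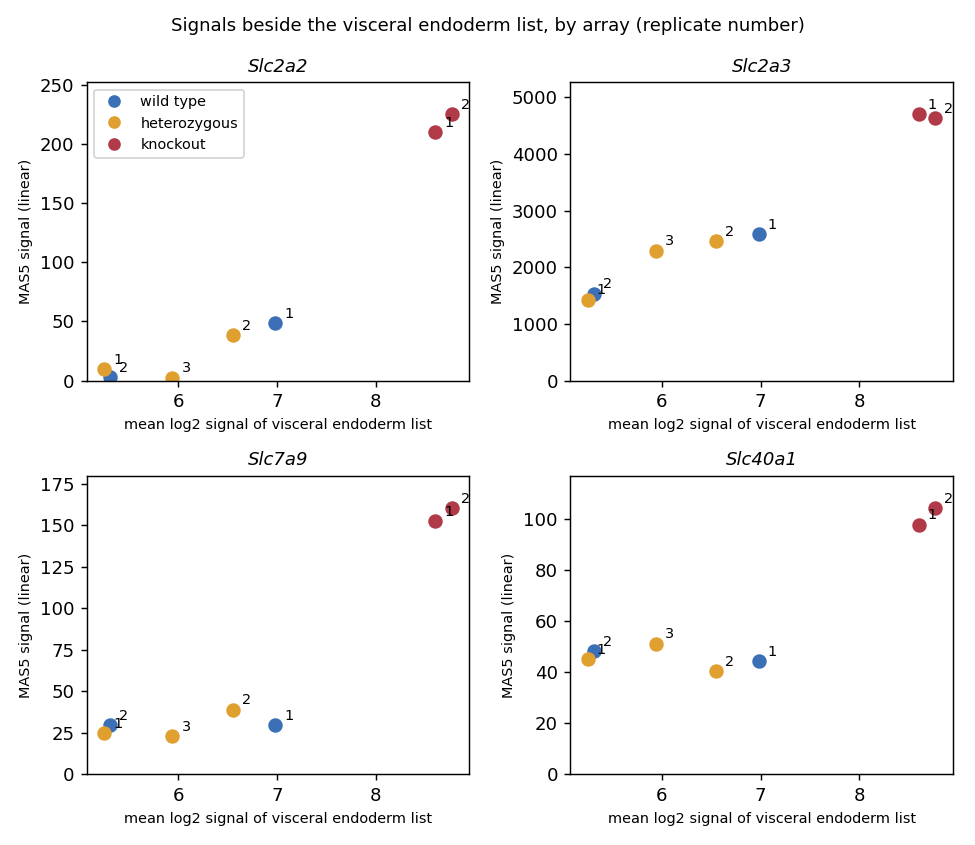
MAS5 signal (vertical axes, linear from 0) of Slc2a2, Slc2a3, Slc7a9 and Slc40a1 against the mean log2 signal of the 20 measured visceral endoderm genes (horizontal axes), 1 point per array, coloured by genotype and labelled with its replicate number. The 2 knockout arrays lie at 8.60 and 8.77 on the horizontal axis, apart from the other 5 at 5.25 to 6.98; among those 5, Slc40a1 runs from 40.3 to 51.2 and Slc2a3 from 1424 to 2586.

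Y-linked genes also differed between the pools. The summed signal of 3 Y-linked genes was 32.9 and 21.4 in the wild type, 97.8 to 188 in the heterozygotes and 145 and 208 in the knockouts. Eif2s3y, 1 of these, gave 0.8 and 0.3, then 28.2, 44.3 and 21.9, then 40.8 and 59.5. Kdm5d gave 10.0 and 4.3, then 46.7, 90.3 and 50.1, then 55.3 and 103. The wild-type pools thus had little Y-linked signal, although the pools are labelled as of mixed sex. In comparisons with the wild type, sex and genotype cannot be told apart, and the part of sex in the carriers' differences was not tested.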

How the data were processed

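The authors deposited 1 linear intensity per probe set and array. MAS5 is the tool in the submitters' processing notes, with neither its version nor its scaling target stated there. They were scaled per array (trimmed means 150.0 to 150.1), so changes are relative to the array. Of 22690 probe sets, 20380 had 1 symbol in the platform annotation, giving 12393 genes. A gene was its probe set with the highest mean signal, at least 35 over the 7 arrays (8075 genes). The 10th percentile of the table, 3.8, was added before taking log2, which understates changes of dim genes. Genotypes were compared in 1 fit over all arrays with limma 3.58.1 in R 4.3.3 (lmFit, eBayes with an intensity trend), adjusted by Benjamini-Hochberg over all genes; the script was tested on simulated data. Per the labels' titles, arrays were grouped by genotype; their number limits the precision.

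Genes named are those past an adjusted p of 0.05 in any comparison, the 6 largest differences in each direction of knockout minus wild type, the brightest carrier of each class with at least 5 genes, the 2 on each side of the minimum, and carrier partners past the threshold; others stand beside these as relatives. The carriers, the lists of partners and markers, and the tests were chosen with earlier results of these data known; the Y-linked list was added after the signals had been seen. Promoter windows came from a RefSeq table on GRCm38.p6, which matched 112 carriers by symbol. No source here names the build that the array was annotated on.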

Additional observations from a re-analysis of the deposited data

How the results depend on the processing

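Against the wild type, where 9 carriers passed, 4 did with no minimum signal, 5 with a minimum of 70, 5 without an intensity trend, 1 with the replicate number as a block and 0 with the visceral endoderm mean as a covariate; with 1 array left out the count ran from 0 to 11. Against the heterozygote, where 9 passed, 15 did with array weights, 1 with the replicate block and 0 with the covariate, and from 1 to 13 with an array left out. The count of carriers whose knockout arrays lay beyond the other 5 was 37, and 40 to 72 with an array left out. Leaving an array out can only keep or raise this count. Heterozygote and wild type gave 0 under every alternative run. Direction turned in 3 of the 18 calls, all with the covariate, and the cause was not tested. They were Slc2a3 at -0.07 against the wild type and -0.19 against the heterozygote, and Slc2a2 at -0.50 against the heterozygote. Turns of differences that had not passed are not in this count, such as that of Slc2a2 against the wild type with the covariate. Of the 18 calls named, array weights, median centring, a pseudocount of 16 and a fit of only the 2 genotypes compared kept 18. No minimum signal kept 11, no intensity trend kept 11, the block kept 2 and the covariate 0. Under the block the direction stayed in all 18. The differences against the wild type could not change there, because wild type and knockout both hold replicates 1 and 2. Under the covariate, which alone sets the knockouts apart, some differences shrank and others grew. Arrays with the same number did not deviate together (correlations -0.31 to 0.001), so the numbers were not taken as pairs; all-gene calls went from 275 to 67 and from 480 to 82 under the block. Without 1 of 2 arrays, the lone array was assumed to vary like the other genotypes. The smallest carrier difference called was 0.49, with 2 or 3 pools a genotype.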

Other observations

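Single arrays stood apart for a few carriers, picked out after their values had been seen. Slc30a3, a carrier of zinc into vesicles, gave 17.4 in heterozygous replicate 1 and 108 to 149 on the other 6 arrays. Slc41a3, a magnesium carrier, gave 183 in heterozygous replicate 3 and 42.9 to 87.8 elsewhere. Slc15a2 gave 83.4 in knockout replicate 2 and 17.7 to 38.6 elsewhere. The widest log2 range over the 7 arrays was that of Slc2a2, at 5.18, and the narrowest that of Slc37a3, a sugar phosphate carrier, at 0.16. Slc7a8, another light chain of Slc3a2, lay under the minimum, with 22.4 and 5.3 in the wild type, 10.8, 21.4 and 11.4 in the heterozygotes and 36.5 and 58.4 in the knockouts.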
